A study of Drosophila melanogaster with 24 samples.

Results

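The effect of larval methylmercury (MeHg) feeding on adult gene expression was compared between the indirect flight muscles (IFM) and the ventral nerve cord (VNC) of Drosophila melanogaster. The comparison uses the 12 adult libraries of the 24 in the series, in 4 groups of 3: adult IFM control, adult IFM MeHg, adult VNC control and adult VNC MeHg. Larvae ate food with 5 µM methylmercury chloride from the first instar onwards, and controls ate food with the DMSO solvent at 0.01%. All adults, exposed and control, lived on food free of MeHg from eclosion until dissection at 15 days, so exposure had ended before sampling. Each library held tissue of 50 animals of mixed sex, fixed in Methacarn, and was made with a kit for stranded total RNA; the labels used here do not name a strain. The VNC was cut from the central brain, and the IFM samples combine both sets of flight muscle fibres, the longitudinal and the vertical.

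The IFM are the large fibrillar muscles that drive the wing stroke, and their cytoplasm is packed with mitochondria. The VNC is the fly's counterpart of the spinal cord and holds the motor neurons, interneurons and glia that control these muscles. MeHg binds thiol groups, and cells answer metal and thiol stress with metallothioneins, ferritins, glutathione transferases and other protective proteins.

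The 6 adult IFM libraries held between 24265409 and 36295687 counts, and the 6 VNC libraries between 35076252 and 39254902. Levels are given as counts per 1000000 (CPM) with TMM scaling, in the order control 1, 2, 3 and MeHg 1, 3, 4, the replicate numbers of the labels. Nothing in the labels says whether replicates came from separate cultures, so p-values measure the spread between these pools. The tissues carried their own defining markers: the myosin heavy chain gene Mhc ranged from 7160 to 11800 CPM over the IFM libraries and from 44.0 to 187 over those of VNC, and the neuronal vesicle gene nSyb was 8.71 to 19.3 over the IFM libraries and 1210 to 1450 over those of VNC. Other tissues also left RNA. Digestive enzyme genes (37 listed) summed to 6560, 13400 and 949 CPM in IFM controls and to 21600, 9460 and 16400 in IFM MeHg libraries. In VNC they summed to 982, 752 and 421 in controls and to 423, 26.5 and 34.1 with MeHg. Testis genes stood apart in VNC control 2 (117 CPM over 19 genes, against 11.4 to 13 in the other VNC libraries), and accessory gland genes in IFM MeHg 3 (163 CPM over 13 genes, against at most 3.40 in the other IFM libraries).

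For each gene, the interaction was taken as the log2 fold change of MeHg against control in IFM minus that in VNC, tested with edgeR's quasi-likelihood F test with Benjamini-Hochberg adjustment over 11620 genes and called under an adjusted p of 0.05. The MeHg effect differed between the tissues for 157 genes (1.35% of those tested), of which 58 had the higher fold change in IFM (0.499%) and 99 the lower (0.852%). Of the 157 genes, 147 had the larger absolute fold change in IFM, and 146 were also called for the MeHg effect within IFM, which was called for 1179 genes in all (10.1%, with 598 higher, 5.15%, and 581 lower, 5.00%). Over the 58 genes the median log2 fold change was 1.26 in IFM and -0.07 in VNC, and over the 99 genes it was -0.69 in IFM and 0.20 in VNC. The estimated effects had opposite signs in 127 of the 157 genes, 90 of them lower in IFM and higher in VNC. Choosing genes by the interaction favours opposite signs, and over all genes tested 46.7% had the same sign.

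Within VNC, edgeR called 0 genes (0%), with 1198 genes at an unadjusted p under 0.05 and a smallest adjusted p of 0.132. DESeq2 called 121 genes there and limma voom 14. The median standard error of the log2 fold change was 0.131 in IFM and 0.129 in VNC over the 8099 genes of at least 5 CPM, while the median absolute fold change was 0.206 in IFM and 0.122 in VNC on the log2 scale. Across those genes the log2 effects in the tissues had a Pearson r of 0.18 and a Spearman rho of -0.04, a description over genes that share libraries. The number of interaction calls depended on single libraries: it was 510 without IFM control 2, 38 without IFM control 3, 67, 28 and 12 without IFM MeHg 1, 3 and 4, and 3 to 14 without any 1 VNC library, while without IFM control 1 it was 173. It was 7 without MeHg replicate 4 of both tissues, whose titles carry another tag (7_28 in place of 7_10).

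**Figure D1:**
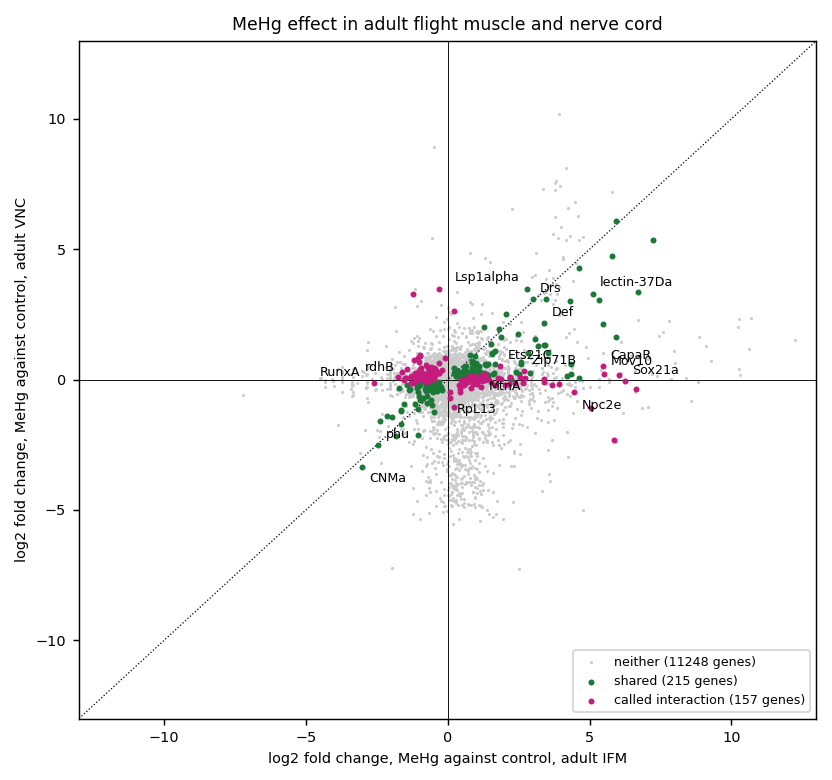
Log2 fold change of MeHg against control in adult IFM (horizontal axis) and adult VNC (vertical axis) for each of the 11620 genes tested, with 157 genes of called interaction in pink, 215 shared genes in green and the others in grey. The dotted line marks equal effects. Of the pink points, 147 have the larger absolute effect in IFM. The median VNC effect is -0.07 over those with the higher effect in IFM and 0.20 over those with the lower. VNC group ranges are separate for 78 of the 157 genes, against 23.2% of all genes tested.

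Metal transport and metal binding genes were among those that responded more in muscle. Zip71B, a ZIP-family metal transporter gene, was 2.10, 1.25 and 1.24 CPM in IFM controls and 9.0, 7.60 and 13.3 in IFM MeHg libraries. In the nerve cord it was 38.0, 35.5 and 35.7 in controls and 40.8, 39.4 and 56.4 with MeHg. All MeHg libraries lay above the controls of their tissue, with the wider separation in IFM. The log2 fold change was 2.69 ± 0.26 (SE) in IFM and 0.32 ± 0.23 in VNC, and the interaction was 2.37 ± 0.35 (edgeR, adjusted p = 0.0270). MtnA, the most abundant metallothionein gene here, was 133, 198 and 193 CPM in IFM controls and 449, 389 and 370 in IFM MeHg libraries. Its VNC levels were 543, 461 and 508 in controls and 603, 526 and 559 with MeHg. The IFM groups were separate and the VNC groups overlapped, with an interaction of 1.05 ± 0.21 (adjusted p = 0.0402). With exposure, IFM approached the level that VNC held without it.

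Of 26 tested members of the metal handling list, MtnA was the only called interaction, and 8 were called higher and 2 lower in IFM. The list's median log2 fold change was 0.28 in IFM and 0.11 in VNC, against 0.00 and 0.04 over all genes tested. The ferritin subunit genes Fer1HCH and Fer2LCH rose in IFM by 0.65 ± 0.11 and 0.57 ± 0.10 on the log2 scale (adjusted p = 0.00820 and 0.00879). In VNC their log2 fold changes were 0.19 ± 0.11 and 0.17 ± 0.10 with separate groups, and their mean effects over both tissues were called (0.42 ± 0.08 and 0.37 ± 0.07, adjusted p = 0.0269 and 0.0290). For 4 of the 26 genes (MtnB, MtnD, Fer1HCH and Fer2LCH) the mean effect was called higher with the same sign in both tissues and no called interaction, against 1.21% of all genes tested. MtnD, another metallothionein gene, was 2.93, 3.37 and 2.67 CPM in IFM controls and 19.7, 18.5 and 15.4 with MeHg, at most 1.26 CPM in any VNC library, and its interaction of 1.90 ± 0.58 had an adjusted p of 0.103. MtnE rose in IFM by 2.25 ± 0.41 (adjusted p = 0.0108) and had an interaction of 2.10 ± 0.58 (adjusted p = 0.0859). MtnB was at most 0.690 CPM in any library, and MtnC, at 5.25 to 48.1 CPM in IFM controls and 24.2 to 112 with MeHg, passed neither test. The metallothionein genes are close paralogs, so their reads may be shared between copies. The copper importer gene Ctr1A and the zinc transporter gene ZnT77C fell in IFM (-0.46 and -0.72, adjusted p = 0.0184 and 0.0153).

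Ets21C, a transcription factor gene of the JNK stress pathway, was 1.5, 1.67 and 1.46 CPM in IFM controls and 6.22, 5.52 and 4.97 with MeHg. In VNC it was 2.17, 2.75 and 2.55 in controls and 3.96, 3.63 and 3.02 with MeHg. MeHg libraries were higher than controls in both tissues without overlap, and the interaction was 1.34 ± 0.25 (adjusted p = 0.0376). The regeneration-associated lectin gene rgn, singled out after its values were seen, was 41.8, 52.7 and 47.2 CPM in IFM controls and 98.4, 111 and 108 with MeHg. In the nerve cord it was 160 to 188 in controls and 155 to 180 with MeHg, and the interaction was 1.17 ± 0.15 (adjusted p = 0.0197). In the list of 21 cell death and JNK genes, Ets21C was the only called interaction, and the median interaction was 0.06. The ubiquitin ligase gene neur, of the Notch list, had an interaction of 0.60 ± 0.11 (adjusted p = 0.0376).

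Other named genes with the higher effect in IFM differed in how their control levels compared between the tissues. nemy, a cytochrome b561 gene named for a memory phenotype, was 9.24, 5.08 and 4.17 CPM in IFM controls and 21.0, 30.7 and 32.0 with MeHg, while all 6 VNC libraries lay between 28.6 and 36.7. Its interaction was 2.09 ± 0.37 (adjusted p = 0.0376). Oatp58Dc, an organic anion transporter gene, was 1.34 to 3.06 CPM in IFM controls and 5.26 to 13.9 with MeHg, against 84.6 to 99.8 in VNC, with an interaction of 2.50 ± 0.49 (adjusted p = 0.0438). Akap200, which encodes an anchor of protein kinase A, rose in IFM from 41.8, 57.2 and 42.4 CPM to 85.2, 108 and 123 (interaction 1.44 ± 0.22, adjusted p = 0.0270). Lkr, the leucokinin receptor gene, was 0.509 to 0.872 CPM in IFM controls and 1.41 to 2.25 with MeHg, against 16.0 to 18.3 in VNC (interaction 1.41 ± 0.27, adjusted p = 0.0376). Act42A, a cytoplasmic actin gene, was at like levels in the controls of both tissues, with 30.7, 33.7 and 41.0 CPM in IFM and 34.1, 36.7 and 34.4 in VNC. With MeHg it was 56.3, 102 and 104 in IFM and 32.8, 33.3 and 36.8 in VNC (interaction 1.35 ± 0.28, adjusted p = 0.0482). The neuron list leaned the other way, with 23 of 25 genes at an interaction below 0. Its median interaction was -0.42, from -0.30 in IFM and 0.13 in VNC, against -0.03 over all genes tested. It had 0 called interactions by edgeR, and 1 gene was called higher and 0 lower in IFM.

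Several named genes with large fold changes were close to 0 in control muscle. Sox21a, a SoxB transcription factor gene known from intestinal progenitor cells, was 0.0319, 0.190 and 0 CPM in IFM controls and 2.16, 7.11 and 7.44 with MeHg. Npc2e, of the Niemann-Pick C2 family of lipid-binding proteins, was 1.15, 0.872 and 0.891 CPM in IFM controls and 6.97, 41.4 and 16.5 with MeHg. CapaR, a neuropeptide receptor gene of the Malpighian tubules, was 0.446, 0 and 0.0318 CPM in IFM controls and 6.97, 6.49 and 8.97 with MeHg. Their interactions were 6.32 ± 0.95, 4.96 ± 0.81 and 4.95 ± 1.01 (adjusted p = 0.0270, 0.0317 and 0.0465), and in VNC these genes were at most 3.28 CPM in any library. Mov10 (5.29 ± 1.07, adjusted p = 0.0476) and gas (2.65 ± 0.52, adjusted p = 0.0402) had the same form.

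Digestive enzyme RNA also varied between libraries, and its sums overlapped between control and MeHg in both tissues. Of 29 digestive enzyme genes tested, 0 had a called interaction (edgeR), 3 were called higher in IFM, and all 29 had an interaction above 0, with a median of 3.88, from 1.91 in IFM and -1.37 in VNC. Its part in the values of Sox21a, Npc2e, CapaR, Mov10 and gas was not tested. In bulk tissue, a change in the share of a cell type and a change of RNA per cell cannot be told apart.

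The genes with the lower effect in muscle included abundant muscle transcripts. Ttd14, a lipid-binding protein gene known from receptor traffic in the eye, was 2440, 1740 and 2530 CPM in IFM controls and 1080, 1030 and 960 with MeHg. Its VNC levels were 92.0, 83.6 and 93.7 in controls and 92.8, 97.5 and 91.0 with MeHg. The IFM groups did not overlap, and the interaction was -1.19 ± 0.18 (adjusted p = 0.0270). iPLA2-VIA, a phospholipase gene whose human counterpart PLA2G6 is mutated in neurodegenerative disease, was singled out after its values were seen, for its adjusted p of 0.00772. It was 550, 484 and 559 CPM in IFM controls and 267, 269 and 247 with MeHg, and 55.3 to 67.1 over the 6 VNC libraries, with an interaction of -1.10 ± 0.12. slgA, the proline dehydrogenase gene and likewise singled out afterwards, was 895 to 983 CPM in IFM controls and 499 to 601 with MeHg (interaction -0.93 ± 0.13, adjusted p = 0.0270).

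TORIP, a torsin-interacting protein gene, and Phyhd1, of the phytanoyl-CoA dioxygenase family, were of this kind. TORIP was 91.4, 97.1 and 136 CPM in IFM controls and 47.5, 40.9 and 42.8 with MeHg, against 19.4 to 23.3 in VNC (interaction -1.20 ± 0.19, adjusted p = 0.0305). Phyhd1 was 525, 497 and 755 CPM in IFM controls and 344, 257 and 269 with MeHg, and 56.3 to 60.3 against 61.2, 62.8 and 93.0 in VNC, with an interaction of -1.35 ± 0.28 (adjusted p = 0.0476). The telomere protein gene ver fell in IFM by 1.15 ± 0.19 on the log2 scale (adjusted p = 0.00668) with an interaction of -1.41 ± 0.27 (adjusted p = 0.0376).

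Other named falls were of lower level in IFM than in VNC. rdhB, a retinol dehydrogenase gene of the visual cycle, was 4.08, 4.85 and 4.36 CPM in IFM controls and 1.24, 1.46 and 1.89 with MeHg. In VNC it was 13.7, 12.0 and 12.8 in controls and 12.9, 12.2 and 13.4 with MeHg. It was lower in every exposed IFM library and overlapped in VNC, with an interaction of -1.53 ± 0.21 (adjusted p = 0.0270). unc-5, a netrin receptor gene of axon guidance, fell in IFM from 12.5, 10.1 and 7.10 CPM to 3.97, 2.63 and 4.10, and its interaction was -1.53 ± 0.28 (adjusted p = 0.0376). CCAP, a cardioactive neuropeptide gene, was 1.71 to 2.71 CPM in IFM controls and 0.690 to 1.07 with MeHg, and 11.8 to 14.4 against 13.8 to 18.7 in VNC (interaction -1.82 ± 0.30, adjusted p = 0.0317). Schip1 and Csgalnact, a chondroitin synthesis gene, had interactions of -1.26 ± 0.20 and -1.23 ± 0.23 (adjusted p = 0.0305 and 0.0376), both at under 5 CPM in IFM. Csgalnact was at most 0.955 CPM in any IFM library, with 72 counts over the IFM controls and 32 over the IFM MeHg libraries. RunxA, a Runt-family transcription factor gene, gave 22 counts over the 3 IFM control libraries and 3 over the 3 IFM MeHg libraries. That is a ratio of MeHg to control of 0.150 with an exact 95% interval of 0.0288 to 0.50 that covers counting error only, and its level in VNC was 13.5 to 16.1 CPM.

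**Figure D2:**
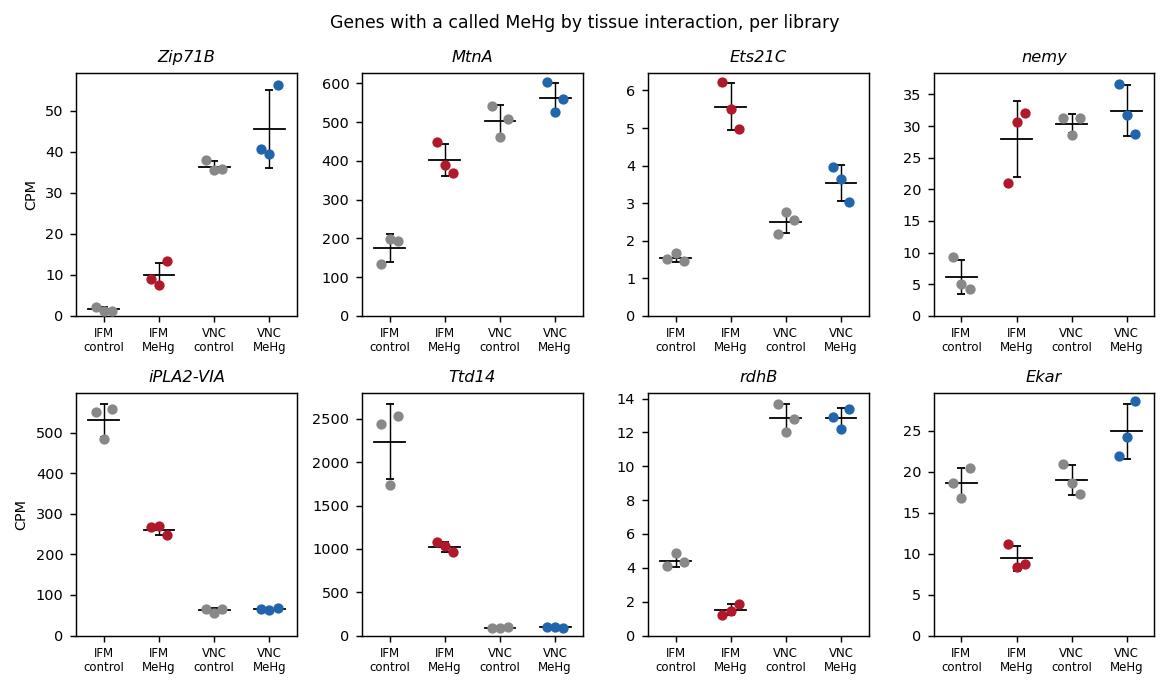
CPM in each of the 12 adult libraries for 8 genes with a called interaction, with controls in grey, IFM MeHg in red and VNC MeHg in blue. Horizontal lines are means and error lines SDs of 3 libraries. In each panel the IFM groups are separate, upwards in the top row and downwards in the bottom row, and the fold change between the VNC groups is smaller.

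Of 68 tested oxidative phosphorylation genes, 5 had a called interaction, all lower in IFM, and 24 were called lower and 0 higher within IFM. The median log2 fold change was -0.39 in IFM and 0.19 in VNC, and 61 of 68 genes had an interaction below 0, with a median of -0.58 against -0.03 over all genes tested. The 5 genes, of which only COX7C and ND-13B follow from the naming rule and the others were chosen after their values were seen, encode subunits of complex I (ND-13B and ND-49), complex III (UQCR-14) and complex IV (COX7C), and cytochrome c itself (Cyt-c-p). COX7C was 1070, 1230 and 1500 CPM in IFM controls and 775, 882 and 776 with MeHg. In the nerve cord it was 111, 89.1 and 102 in controls and 119, 121 and 139 with MeHg. It was lower in every exposed IFM library and higher in every exposed VNC library than in the controls, with an interaction of -0.97 ± 0.19 (adjusted p = 0.0381).

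Cyt-c-p, the somatic cytochrome c gene, was 2910, 3140 and 3700 CPM in IFM controls and 2000, 2430 and 1990 with MeHg, and 218 to 259 against 269 to 299 in VNC. Its groups were again separate in both tissues in opposite directions, and the interaction was -0.81 ± 0.17 (adjusted p = 0.0482). ND-13B, UQCR-14 and ND-49 had interactions of -0.92 ± 0.17, -0.97 ± 0.20 and -0.79 ± 0.16 (adjusted p = 0.0376, 0.0482 and 0.0457). The mitochondrial ribosome list leaned the same way, with 64 of 72 genes below 0, a median interaction of -0.31 and 1 call, mRpL54 (-0.92 ± 0.16, adjusted p = 0.0376). By contrast, the complex I gene ND-B16.6 and the complex III gene UQCR-Q fell in both tissues by the test of the mean effect (-0.47 ± 0.07 and -0.41 ± 0.08, adjusted p = 0.00990 and 0.0282), with interactions of -0.07 (95% interval -0.37 to 0.22) and 0.04 (-0.31 to 0.39).

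Several library properties moved with these mitochondrial genes. IFM control 3 was the highest control in the median level of both lists (0.24 and 0.21 above the mean of IFM controls on the log2 scale), and without it the interaction was called for 38 genes of all tested. Short genes had lower interaction values than long genes (Spearman rho 0.18 with exonic length over 8097 genes, median -0.30 in the shortest decile and 0.02 in the longest), and many of these genes are short. Transcripts of the mitochondrial genome, in these counts almost entirely its ribosomal RNA, took 5.20 to 8.08% of counts in IFM controls and 4.20 to 5.45% with MeHg, and 0.943 to 1.46% and 0.784 to 0.884% in VNC. With ribosomal RNA and mitochondrial genome genes left out, 161 genes of all tested were called, among them all 157. With the length trend removed, 283 of all genes tested were called, 194 of them lower in IFM and 153 of them among the 157. These counts cover all genes and do not show how the mitochondrial lists changed.

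The genes with the lower effect in IFM were unevenly spread over the chromosomes, a pattern singled out after the values were seen. The small chromosome 4, which is largely heterochromatic and whose active genes are bound by the protein Pof, holds 99 of the genes tested, and 15 of them (15.2%) had a called interaction, all lower in IFM. That number was 0 to 24 with 1 library left out, and 0 without VNC control 2 or 3 or any 1 VNC MeHg library. On the other arms 0.474 to 1.06% of genes were called lower. Of the 99 genes, 88 had an interaction below 0, and the median was -0.49, against -0.04 to -0.02 on the X, 2L, 2R, 3L and 3R arms. Both tissues contributed: the median log2 fold change of chromosome 4 genes was -0.26 in IFM, where 18 were called lower and 2 higher, and 0.23 in VNC, where 44 were higher and 1 lower at an unadjusted p under 0.05.

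The shift was present in every exposed library. Relative to the mean of the IFM controls, the median chromosome 4 gene stood at -0.03, -0.06 and 0.08 in the IFM controls and at -0.25, -0.23 and -0.25 with MeHg on the log2 scale. Relative to the VNC controls it stood at 0.10, -0.03 and -0.08 in the VNC controls and at 0.19, 0.22 and 0.28 with MeHg. All exposed IFM libraries lay below the IFM controls and all exposed VNC libraries above the VNC controls, while over all genes tested the same medians stayed between -0.09 and 0.05.

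The chromosome 4 genes called span unrelated functions. Ekar, a kainate-type glutamate receptor gene, was 18.6, 16.8 and 20.5 CPM in IFM controls and 11.2, 8.41 and 8.75 with MeHg. Its VNC levels were 21.0, 18.7 and 17.3 in controls and 22, 24.3 and 28.6 with MeHg. It moved in opposite directions without overlap, with an interaction of -1.38 ± 0.20 (adjusted p = 0.0270). The metabotropic glutamate receptor gene mGluR (-0.98 ± 0.15, adjusted p = 0.0270), the eye selector gene ey (-1.07 ± 0.19, adjusted p = 0.0376), the nuclear factor gene NfI (-0.76 ± 0.14, adjusted p = 0.0376), the DNA repair and proteasome adaptor gene Rad23 (-0.79 ± 0.15, adjusted p = 0.0376) and the yellow-family gene yellow-h (-1.41 ± 0.29, adjusted p = 0.0465) were also among them, as was ND-49. RhoGAP102A differed in that its change lay in VNC, with 24.1, 20.0 and 23.6 CPM in controls and 38.8, 39.1 and 43.2 with MeHg against an IFM log2 fold change of -0.08 ± 0.12 (interaction -0.92 ± 0.18, adjusted p = 0.0381). The muscle gene bt and the ribosomal gene RpS3A, on the same chromosome, had interactions of -0.18 and 0.16 (adjusted p = 0.853 and 0.600). The gene Pof itself had an interaction of 0.14 with an adjusted p of 0.781.

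**Figure D3:**
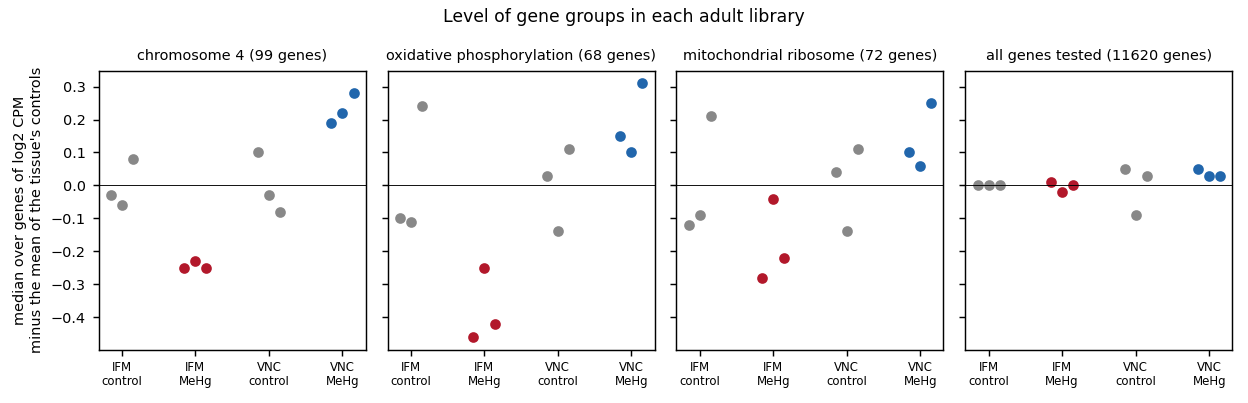
Median over the genes of a group of log2 CPM minus the mean of the control libraries of the same tissue, for each of the 12 adult libraries, with controls in grey, IFM MeHg in red and VNC MeHg in blue. Chromosome 4 genes stand at -0.25 to -0.23 in exposed IFM and at 0.19 to 0.28 in exposed VNC, while the median over all genes tested stays between -0.09 and 0.05.

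At 1.35% of all genes called, a list of this size may hold 0 called interactions without differing from the background. Of 31 sarcomere genes, 0 had a called interaction by edgeR, 1 was called lower in IFM, and the median interaction was -0.04. Mhc had an interaction of 0.30 with a 95% interval of -1.0 to 1.59, and Act88F, the flight muscle actin gene, one of -1.21 (-2.48 to 0.06), with 3270, 3390 and 4860 CPM in IFM controls and 1670, 1850 and 1250 with MeHg. Of 32 glutathione transferase genes 0 had a called interaction, with 5 called higher and 2 lower in IFM and a median interaction of 0.33, and of 18 antioxidant genes 0 had one, with 2 called higher and 4 lower in IFM and a median of 0.04. GstD1 was 576 to 832 CPM in IFM controls and 852 to 1090 with MeHg, with an interaction of 0.44 (95% interval -0.02 to 0.89). cnc, the Nrf2 homologue, fell in IFM by 0.27 ± 0.07 on the log2 scale (adjusted p = 0.0452) with an interaction of -0.37 (adjusted p = 0.0895), and Gclc, of glutathione synthesis, had one of 0.19 (-0.36 to 0.74). The adhesion genes Nlg1 and kon had interactions of 0.21 (-0.88 to 1.29) and 0.09 (-0.20 to 0.37).

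**Figure D4:**
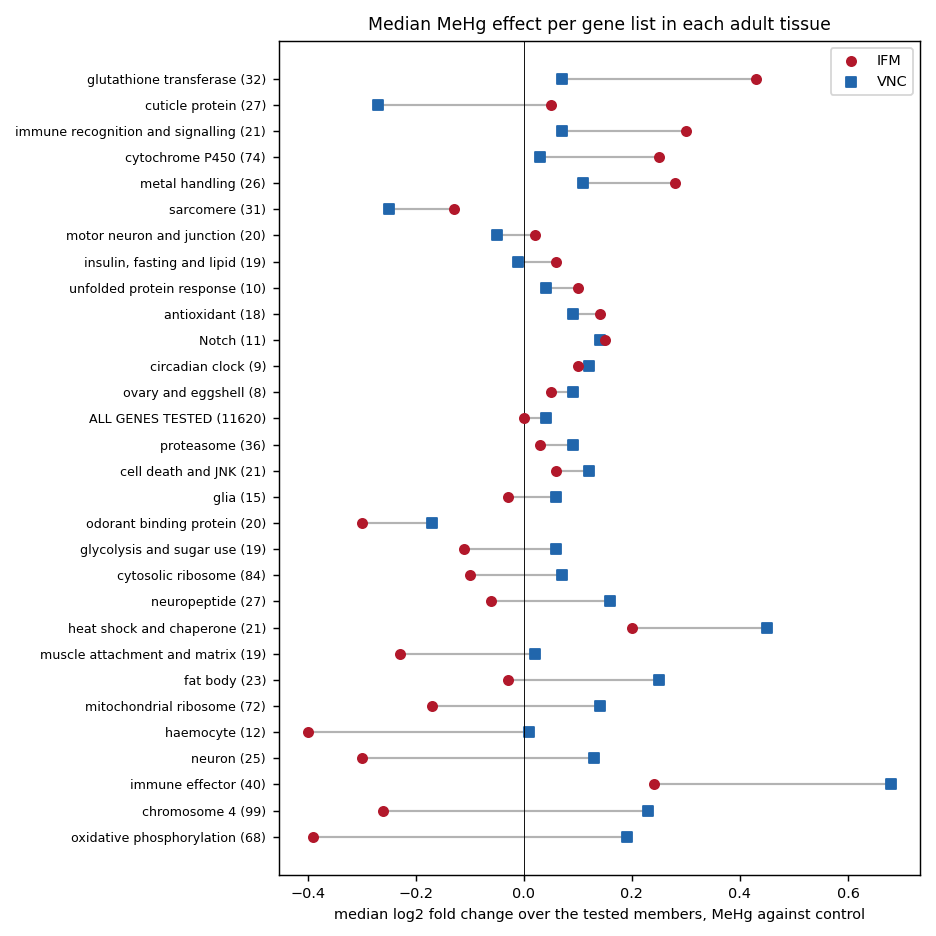
Median log2 fold change of MeHg against control over the tested members of each gene list (number in brackets) in adult IFM (red circles) and adult VNC (blue squares), sorted by the difference. Oxidative phosphorylation and chromosome 4 genes lie at the bottom with IFM below 0 and VNC above 0, and all genes tested lie near 0 in both tissues. Lists under 8 tested members and the digestive enzyme, testis and ribosomal RNA lists are left out.

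Only 10 of the 157 genes had the larger change in the nerve cord. RpL13, a gene of the large cytosolic ribosomal subunit, was 237, 235 and 212 CPM in VNC controls and 149, 152 and 116 with MeHg. In IFM it was 280, 323 and 286 in controls and 335, 279 and 319 with MeHg. The VNC groups were separate and the IFM groups overlapped, with an interaction of 0.78 ± 0.16 (adjusted p = 0.0482), the only call among 84 cytosolic ribosomal genes. Dhc93AB, an axonemal dynein heavy chain gene, was 21.9 to 24.7 CPM in VNC controls and 33.6 to 38.2 with MeHg, and 9.91 to 12.1 against 7.81 to 9.38 in IFM (interaction -0.94 ± 0.15, adjusted p = 0.0299). Fancm, a DNA repair helicase gene, was 29.8 to 33.1 CPM in VNC controls and 20.8 to 24.1 with MeHg, and 21.3 to 25.3 against 30.0 to 32.3 in IFM (interaction 0.90 ± 0.13, adjusted p = 0.0270). Dhc93AB and Fancm were singled out after their values were seen. Each moved in opposite directions in the tissues without overlap.

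A common response was defined by the test of the mean of the IFM and VNC effects, which was called for 280 genes (2.41%, with 183 higher, 1.57%, and 97 lower, 0.835%). Of these, 215 (1.85%) had the same sign in both tissues and no called interaction, 141 higher (1.21%) and 74 lower (0.637%), and are referred to as shared. The group ranges of control and MeHg were separate in both tissues for 126 of the 215 (3.30% of all genes tested were separate in both with the same sign), a share that follows in part from how the 215 were chosen in the same libraries. The calls leaned on muscle: 198 of the 215 were called within IFM and 0 within VNC. Leaving out 1 library gave 55 to 252 shared genes.

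Immune genes were among the shared rises. Drs, which encodes the antifungal peptide drosomycin, was 15, 26 and 15 CPM in IFM controls and 166, 137 and 142 with MeHg. In VNC it was 0.799, 3.49 and 3.23 in controls and 21.7, 11.8 and 30.9 with MeHg. No exposed library overlapped the controls in either tissue, and the log2 fold changes of 2.99 ± 0.51 and 3.09 ± 0.52 gave a mean effect of 3.04 ± 0.36 (adjusted p = 0.00901) and an interaction of -0.10 (95% interval -1.61 to 1.41). Def, the defensin gene, was 1.18, 1.44 and 1.27 CPM in IFM controls and 19.7, 15.4 and 6.46 with MeHg, and 0.515, 0.217 and 0.139 against 2.06, 1.12 and 0.743 in VNC. Its mean effect was 2.79 ± 0.39 (adjusted p = 0.00990). The peptidoglycan sensor gene PGRP-SD (1.44 ± 0.28, adjusted p = 0.0316) and pirk (1.28 ± 0.23, adjusted p = 0.0218), a feedback inhibitor of the Imd pathway, were also shared. PGRP-LB, a peptidoglycan amidase gene, counted as shared (0.90 ± 0.16, adjusted p = 0.0218), although its VNC effect was 0.21 ± 0.24 and its interaction 1.37 ± 0.33 (adjusted p = 0.0621).

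Of 40 immune effector genes tested, 4 were called higher and 0 lower in IFM, against 5.15% and 5.00% of all genes tested. Another 1.21% of all genes tested were shared rises, against 2 of the 40. The list's median log2 fold change was 0.24 in IFM and 0.68 in VNC, against 0.00 and 0.04 over all genes tested. Of the 40, 24 had an interaction below 0, with a median of -0.33 against -0.03. Drsl3, a drosomycin-like gene, was the only called interaction, from 2 counts over the IFM control libraries and 69 over the IFM MeHg libraries. That is a ratio of 38.0 with an exact 95% interval of 10.1 to 320, and 5 and 2 counts in VNC gave a ratio of 0.414 (0.0394 to 2.53). These intervals cover counting error only, and reads of drosomycin-like paralogs may be shared. The fat body, a main source of such peptides, left RNA in all libraries. Its 23 listed genes summed to 17800, 26900 and 23800 CPM in IFM controls and 23300, 14500 and 17300 with MeHg, and to 7710 to 8710 and 8290 to 9470 in VNC. Haemocyte genes (12 listed) summed to 2410 to 3730 CPM and 2060 to 2390 in IFM, and to 750 to 816 and 744 to 902 in VNC. Their part in the immune values was not tested.

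From the list of cell death and JNK genes, Mmp1 and Drice were shared. Mmp1, a matrix metalloproteinase gene, was 34.6, 41.8 and 22.6 CPM in IFM controls and 80.9, 86.7 and 84.7 with MeHg. In the nerve cord it was 39.9, 37 and 38.5 in controls and 52.6, 58.3 and 58.8 with MeHg. The groups were separate in both tissues, with a mean effect of 0.95 ± 0.12 (adjusted p = 0.00901) and an interaction of 0.79 ± 0.24 (adjusted p = 0.103). Drice, an effector caspase gene, had a mean effect of 0.37 ± 0.08 (adjusted p = 0.0432), with 14 to 18 CPM against 22 to 28 in IFM and 12.2 to 13.4 against at least 13.5 in VNC. The selective autophagy receptor gene ref(2)P had a mean effect of 0.26 ± 0.06 (adjusted p = 0.0435). Arc1, a retrovirus-like capsid gene active in neurons and muscle and singled out after its values were seen, was 1490, 1700 and 1710 CPM in IFM controls and 3360, 7390 and 3610 with MeHg. Its VNC levels were 630, 529 and 678 in controls and 1320, 1230 and 1210 with MeHg, again without overlap.

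Other genes named from the lists had small mean effects. InR, the insulin receptor gene, was 157, 150 and 152 CPM in IFM controls and 166, 188 and 176 with MeHg, and 159 to 185 against 201 to 208 in VNC. It was higher in every exposed library of both tissues, with a mean effect of 0.24 ± 0.05 (adjusted p = 0.0449) and an interaction of -0.05 (95% interval -0.28 to 0.18). The adhesion gene Fas2, the integrin gene mew and the synaptic chaperone gene Csp had mean effects of 0.27 ± 0.06, 0.35 ± 0.08 and 0.29 ± 0.06 (adjusted p = 0.0432, 0.0435 and 0.0417). Their log2 fold changes were 0.48 ± 0.08, 0.58 ± 0.11 and 0.41 ± 0.09 in IFM and 0.05 ± 0.08, 0.11 ± 0.11 and 0.17 ± 0.09 in VNC, where the groups of Fas2 and mew overlapped. Tig, an integrin ligand gene, had a mean effect of -0.48 ± 0.10 (adjusted p = 0.0336). Cyp12a5, of the cytochrome P450 family, and the cuticle gene Edg91, which was at most 1.30 CPM, had mean effects of 0.50 ± 0.08 and 2.35 ± 0.47 (adjusted p = 0.0151 and 0.0336). Cyp12a5 rose mostly in IFM (0.81 ± 0.11, against 0.18 ± 0.11 in VNC, where the groups were not separate). Its interaction of 0.63 (95% interval 0.28 to 0.97) was not called (adjusted p = 0.0682). The small mitochondrial ribosomal RNA (listed as srRNA) fell in the mean by 0.60 ± 0.13 (adjusted p = 0.0432).

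The other shared rises of the naming rule came mostly from genes of low level. lectin-37Da, a C-type lectin gene, was 1.5, 2.08 and 0.70 CPM in IFM controls and 10.8, 83.4 and 53.1 with MeHg, and at most 2.30 CPM in VNC, where the groups overlapped, with an interaction of 1.82 ± 2.12 (adjusted p = 0.646). Srg2 and Erasp had a similar form, at 0.573 to 0.986 and 0.455 to 0.828 CPM in IFM controls against 14.3 to 41.2 and 3.66 to 19.8 with MeHg, and at most 0.959 CPM in VNC. Their interactions were 2.25 ± 1.51 and 4.14 ± 0.89 (adjusted p = 0.407 and 0.0526). Lsp1alpha, a larval serum protein gene, was 2.42 to 3.87 CPM against 14.2 to 32.1 in IFM and 0.325 to 0.851 against 1.68 to 11.4 in VNC, without overlap (mean effect 3.14 ± 0.47, adjusted p = 0.0151, and interaction -0.70 ± 0.88). Cyp6a18, a cytochrome P450 gene, and NaPi-T, a phosphate transporter gene, had mean effects of 3.79 ± 0.76 and 2.38 ± 0.47 (adjusted p = 0.0348 and 0.0363). In VNC, Cyp6a18 was 0.155, 0.193 and 0.372 CPM in controls and 1.98, 0.182 and 0.120 with MeHg, so only MeHg 1 was higher. Their interactions were 4.30 (95% interval 1.01 to 7.59) and 2.13 (0.07 to 4.18), not called (adjusted p = 0.139 and 0.218), with the larger estimated rise in IFM.

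Among the shared falls, CNMa, a neuropeptide gene, was 44.1, 42.8 and 24.1 CPM in IFM controls and 7.06, 1.33 and 5.52 with MeHg. In VNC it was 4.67, 2.60 and 2.95 in controls and 0.283, 0.389 and 0.312 with MeHg. The groups were separate in both tissues and the log2 fold changes were -3.01 ± 0.52 and -3.36 ± 0.60, with a mean effect of -3.18 ± 0.40 (adjusted p = 0.00901) and an interaction of 0.36 (95% interval -1.32 to 2.03). AkhR, the receptor gene of the fat-mobilising adipokinetic hormone, was 43.2, 50.1 and 43.7 CPM in IFM controls and 27.5, 19.7 and 24.2 with MeHg, and 5.13 to 6.27 against 2.18 to 4.75 in VNC (mean effect -0.86 ± 0.17, adjusted p = 0.0316). Apoltp, a lipid transfer lipoprotein gene, fell by 0.57 ± 0.13 (adjusted p = 0.0484), and the lipase gene bmm rose by 0.38 ± 0.08 (adjusted p = 0.0371).

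phu was 582, 484 and 491 CPM in IFM controls and 174, 34.0 and 77.5 with MeHg, and 52.5, 61.9 and 77.1 against 19.9, 10.7 and 3.36 in VNC. It was lower in every exposed library, with a mean effect of -2.47 ± 0.47 (adjusted p = 0.0348). Nepl4, a neprilysin-like peptidase gene, fell from 31.0, 25.1 and 28.5 CPM to 10.6, 6.95 and 9.40 in IFM, and was 2.94 to 4.11 against 1.29 to 1.74 in VNC (mean effect -1.43 ± 0.14, adjusted p = 0.00477). Obp83cd, an odorant-binding protein gene (-1.99 ± 0.33, adjusted p = 0.0167), Root, which encodes the ciliary rootlet protein (-1.67 ± 0.33, adjusted p = 0.0336), Orct2, an organic cation transporter gene (-1.0 ± 0.22, adjusted p = 0.0466), and Srr, the serine racemase gene (-0.87 ± 0.18, adjusted p = 0.0348), completed the 8 named falls. Each of the 8 had separate ranges in both tissues. Orct2 and Srr count as shared because their interactions were not called (adjusted p = 0.115 and 0.225). Orct2 fell mostly in IFM (-1.70 ± 0.32, against -0.31 ± 0.31 in VNC), with an interaction of -1.39 (95% interval -2.37 to -0.41). Srr fell more in VNC (-1.26 ± 0.26, against -0.47 ± 0.24 in IFM), with an interaction of 0.79 (0.01 to 1.57).

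**Figure D5:**
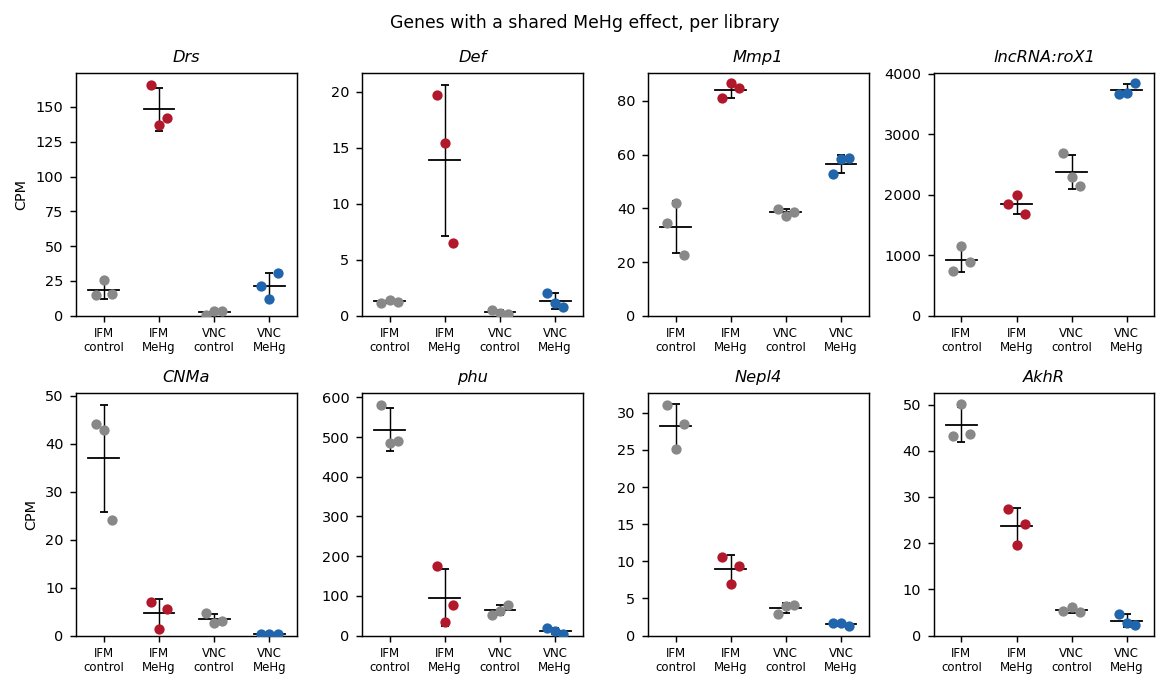
CPM in each of the 12 adult libraries for 8 genes with a shared effect, with controls in grey, IFM MeHg in red and VNC MeHg in blue. Horizontal lines are means and error lines SDs of 3 libraries. In each panel exposed libraries lie above (top row) or below (bottom row) the controls of both tissues, at levels that differ between the tissues.

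Genes that differ between the sexes had these values. roX1, the noncoding RNA of male dosage compensation (listed as lncRNA:roX1), was 736, 1150 and 891 CPM in IFM controls and 1850, 1990 and 1680 with MeHg. In the nerve cord it was 2690, 2290 and 2140 in controls and 3660, 3680 and 3850 with MeHg, for a mean effect of 0.82 ± 0.11 (adjusted p = 0.00901). The yolk protein gene Yp1, active in females, was 17200, 18700 and 14400 CPM in IFM controls and 10700, 5060 and 9520 with MeHg, and 1730, 2070 and 2090 against 1760, 916 and 847 in VNC. Yp1 was lower in all exposed IFM libraries and in VNC MeHg 3 and 4, but not in VNC MeHg 1. By edgeR, Yp1 was called in neither tissue (adjusted p = 0.0724 in IFM and 0.469 in VNC) nor for the mean effect (0.0672). Of the same list, roX2 overlapped between the IFM groups and was separate in VNC. The list member msl-2 rose in IFM (0.47 ± 0.09) with a VNC effect of 0.03 ± 0.09. Among the 7 listed genes, only roX1 was called for the mean effect. The sexes were mixed in every pool, and the part of their proportions in the shared genes was not tested.

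The adult pattern was then set against pupae at 30 h after puparium formation, from the other 12 libraries, with a test of the 3-way interaction of MeHg, tissue and stage over 12631 genes. It was called for 42 genes (0.333%), 18 higher (0.143%) and 24 lower (0.190%) in adults, and 27 of the 157 adult interaction genes were among them. That overlap follows in part from the choice of the 157, since the 3-way test uses the same adult libraries. Within pupae, 31 genes had a called interaction of MeHg and tissue (0.245%, with 10 higher, 0.0792%, and 21 lower, 0.166%), 4 of them among the adult 157. Of the 157, 65 had the same sign in pupae, a count without a share over all genes to set beside it. In the same fit the adult interaction was called for 427 genes (3.38%, with 168 higher, 1.33%, and 259 lower, 2.05%). nemy had an interaction of 2.07 in adults and -0.66 in pupae in this fit (difference 2.72 ± 0.39, adjusted p = 0.00546). rdhB had -1.55 and 0.68 (difference -2.23 ± 0.33, adjusted p = 0.00546), and Schip1 had -1.28 and 0.81 (difference -2.09 ± 0.37, adjusted p = 0.0188). The citrate synthase gene kdn, singled out after its values were seen, was called in both stages with opposite signs (0.73 in adults and -0.90 in pupae, with an adjusted p of 0.0284 in pupae). The other genes of the 157 that were called in pupae kept their sign. They were Fancm (0.88 in adults and 0.87 in pupae), CG2061 (-0.72 and -0.88) and CG11456 (-0.92 and -1.28). For the 99 chromosome 4 genes the median interaction was 0.38 in pupae, with 19 of 99 below 0, and -0.51 in adults in the same fit. On the X, 2L, 2R, 3L and 3R arms the medians were 0.03 to 0.06 in pupae and -0.03 to -0.01 in adults. Of the 99 genes, 0 had a called interaction in pupae, and the 3-way test called 2 lower and 0 higher in adults.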

How the data were processed

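The series has 24 libraries of fly total RNA, of which the 12 adult ones (4 groups of 3) are used. The authors deposited whole-number counts for 17545 genes. STAR 2.7.6a, featureCounts, Subread 2.0.1 and bcl2fastq 2.19.0 are named with the dm6 genome in the submitters' processing notes. A strand setting is not given in the sources used here. Overlapping genes on opposite strands are therefore uncertain. The normalised signal table that the authors deposited divides each count by 1 factor per library (relative deviation at most 5.2e-15) and was not used further. Names came from a RefSeq table of the same release for 17504 genes, exonic lengths from an Ensembl annotation for 99.8%.

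Tests used the deposited counts in edgeR 4.0.16 (R 4.3.3): TMM scaling, filterByExpr, robust quasi-likelihood fit of 4 group means (8 residual degrees of freedom), and Benjamini-Hochberg adjustment. The ± after a log2 value is its standard error, and intervals are at 95%. CPM are scaled over the 12 adult libraries. Pupal values come from a fit of all 24 libraries. Replicate columns within a group all differed (chi-square per degree of freedom 26.0 to 214). The scripts were tested on simulated data.

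Named genes were the 12 largest called interactions in each direction and the 8 largest shared effects in each direction, with at least 5 CPM in 1 group and a gene symbol that is no CG or CR identifier, up to 4 called members of each of 34 gene lists, and a fixed set (Nlg1, kon, cnc, Gclc, GstD1, the metallothionein genes, Mhc, Act88F). Members and lists were chosen with earlier results of these data known. Alternatives were RLE scaling, no low-count filter, DESeq2 1.42.0, limma 3.58.1 voom with quality weights, all 24 libraries, the replicate number as a block, title tag 7_10 only, removal of length trends, omission of ribosomal and mitochondrial genes, and leaving out each library.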

Additional observations from a re-analysis of the deposited data

Results flagged for a closer look

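The effect of MeHg differed between adult IFM and VNC by the interaction test for 157 genes. Among named genes the log2 interaction was called higher in IFM for Sox21a (6.32), Mov10 (5.29), Npc2e (4.96), CapaR (4.95), gas (2.65), Oatp58Dc (2.50), Zip71B (2.37), nemy (2.09), Akap200 (1.44), Lkr (1.41), Act42A (1.35), Ets21C (1.34), MtnA (1.05), Drsl3 (6.15), RpL13 (0.78), neur (0.60). It was called lower in IFM for RunxA (-2.47), CCAP (-1.82), unc-5 (-1.53), rdhB (-1.53), yellow-h (-1.41), ver (-1.41), Ekar (-1.38), Phyhd1 (-1.35), Schip1 (-1.26), Csgalnact (-1.23), TORIP (-1.20), Ttd14 (-1.19), ND-13B (-0.92), COX7C (-0.97), mRpL54 (-0.92).

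The adult interaction differed from that in pupae by the 3-way test for 42 genes. Among named genes the log2 difference of adult minus pupal interaction was called for nemy (2.72), Akap200 (1.65), CCAP (-2.16), unc-5 (-1.77), rdhB (-2.23), Phyhd1 (-2.35), Schip1 (-2.09), Ttd14 (-1.19).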

How the results depend on the processing

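Over the named genes and the alternatives other than leaving out a library, the interaction kept its direction and its side of the threshold in 628 values, lost the call in 123, gained it in 21 and changed sign in 17. With 1 library left out these numbers were 622, 290, 6 and 30. The values kept include those of named genes that the main test had not called and that stayed uncalled. A lost call can come only from a called gene, so these numbers do not give the share of calls kept. The interaction was called for 34 genes with no low-count filter, 1313 with DESeq2, 340 with voom, 427 with all 24 libraries, 8 with the replicate block, 0 with the pool replicate block (treatment and replicate number together as blocks), 7 with title tag 7_10 only and 283 with the length trend removed, and for 3 to 510 when 1 library was left out. The IFM effect was called for 495, 2185, 751 and 310 genes (no low-count filter, DESeq2, replicate block, title tag 7_10 only), and for 496 to 1311 with 1 library left out. The VNC effect was called for 121 genes with DESeq2, 14 with voom, 7 with all 24 libraries, 4 with the replicate block and 9 with title tag 7_10 only, and for 0 to 3 with 1 library left out. The mean effect was called for 119, 1211, 519, 15 and 54 genes (no low-count filter, DESeq2, all 24 libraries, replicate block, title tag 7_10 only) and for 62 to 445 with 1 library left out. Genes called in both tissues numbered 30 with DESeq2, 2 with voom, 5 with all 24 libraries, 3 with the replicate block and 5 with title tag 7_10 only, and 0 to 3 with 1 library left out. The 3-way interaction was called for 74 genes with the replicate block and 22 to 126 with 1 library left out. Shared genes numbered 11 with the replicate block, 3 of them among the 215, and 756 with DESeq2, 121 of them among the 215. The labels do not say whether IFM and VNC libraries of the same replicate number came from the same animals. Correlations of their deviations from the group means were -0.30, -0.16 and 0.22 in controls and 0.24, 0.11 and 0.14 with MeHg. These values are too few and too mixed to decide it. The main test treated the libraries as unpaired, and the pool replicate block leaves no estimate of the effect within a tissue. The median interaction of chromosome 4 genes, an alternative added after the data were seen, was -0.55 to -0.42 over the other settings and -0.58 to -0.46 with any 1 library left out. The number of them called lower was 15, and 5 with no low-count filter, 50 with DESeq2, 6 with all 24 libraries, 1 with the replicate block, 0 with the pool replicate block or title tag 7_10 only, and 0 to 24 with 1 library left out. The cause of these changes was not tested. 

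Every named effect whose sign changed was one that edgeR had not called with all 12 libraries. With title tag 7_10 only, the sign changed for the interaction of Drs (0.33), phu (-0.24), Root (-0.33), UQCR-Q (-0.01), Nlg1 (-0.11) and for the IFM effect of kon (0.05) and for the VNC effect of unc-5 (-0.02), Gclc (-0.11), Act88F (0.17). With the length trend removed, the sign changed for the interaction of Drs (0.02), UQCR-Q (-0.02) and for the IFM effect of RpL13 (-0.01) and for the VNC effect of Lkr (-0.01). With no low-count filter, the sign changed for the interaction of phu (-0.02), Root (-0.04), UQCR-Q (-0.04) and for the VNC effect of Sox21a (0.01), Act42A (0.03), rdhB (0.05). With voom, the sign changed for the interaction of phu (-0.28), Root (-0.28), UQCR-Q (-0.07), Nlg1 (-0.03), Mhc (-0.02) and for the VNC effect of Sox21a (0.04), Lkr (-0.01), Gclc (-0.08), Act88F (0.14). With the replicate block, the sign changed for the interaction of Root (-0.04) and for the mean effect of MtnC (0.31) and for the IFM effect of Nlg1 (0.03) and for the VNC effect of Sox21a (0.15), nemy (-0.00), Lkr (-0.01), unc-5 (-0.04), Ttd14 (-0.01), Gclc (-0.01), GstD1 (-0.02), Act88F (0.04). With the pool replicate block, the sign changed for the interaction of Root (-0.13). With RLE scaling, the sign changed for the VNC effect of Lkr (-0.02). With DESeq2, the sign changed for the VNC effect of Lkr (-0.02). With all 24 libraries, the sign changed for the VNC effect of Lkr (-0.02). Leaving out 1 library changed the sign of the interaction of Lsp1alpha (-1.21 to 0.13), Drs (-0.41 to 0.29), CNMa (-0.10 to 0.79), phu (-0.74 to 0.71), Root (-0.25 to 0.42), AkhR (-0.39 to 0.21), UQCR-Q (-0.09 to 0.08), PGRP-SD (-0.48 to 0.44), Nlg1 (-0.19 to 0.66), kon (-0.01 to 0.19), Mhc (-0.26 to 0.62). Leaving out 1 library changed the sign of the mean effect of MtnC (-0.70 to 0.30). Leaving out 1 library changed the sign of the IFM effect of Nlg1 (-0.25 to 0.01), kon (-0.10 to 0.05), Mhc (-0.29 to 0.04). Leaving out 1 library changed the sign of the VNC effect of Sox21a (-0.11 to 0.11), Mov10 (-0.05 to 0.74), gas (-0.11 to 0.18), Lkr (-0.04 to 0.07), Act42A (-0.07 to 0.02), Cyp6a18 (-0.65 to 2.16), rdhB (-0.05 to 0.07), Fas2 (-0.01 to 0.11), Nlg1 (-0.80 to 0.05), Gclc (-0.06 to 0.12), MtnE (-0.13 to 0.36), Mhc (-0.76 to 0.13), Act88F (-0.45 to 0.58).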
